A study of Mus musculus with 18 samples.

Results

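DNA replication and nucleotide supply genes were followed across 18 poly(A) RNA libraries of 4T1, a mouse mammary tumour cell line. The set was a list of 45 gene symbols, matched by name with no threshold on a measured value, and all 45 were found among the 34591 gene symbols of the count files and passed the low-count filter of every fit. By role the list held 11 subunits of the replicative helicase and its partners, 3 licensing and origin-firing factors (called licensing below) and 9 polymerase and primase subunits. It also held 8 genes of the sliding clamp, its loader and lagging-strand maturation, and 3 subunits of the single-strand binding protein RPA. The rest were 5 enzymes of deoxynucleotide supply, 3 regulators of S phase entry and 3 genes of chromatin copying. The study had 6 groups of 3 libraries. Parental 4T1 cells were kept for 24 h in fresh RPMI medium (untreated) or in the same medium with 2 ng/mL recombinant human TGFb1, a cytokine known to slow the cycle of many epithelial cells. Lines transduced with a lentivirus, either empty (EV) or expressing Wisp1, a secreted matricellular protein, were selected with puromycin and grown to subconfluence on tissue-culture plastic or on plastic coated with collagen type I. All stable-line cultures thus shared transduction and selection, whether a line is 1 clone or a pool is not stated in the labels, and replicates of a stable group are cultures of 1 line. The p-values therefore measure the spread between cultures.

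Replication begins when licensing factors such as Cdc6 and Cdt1 load the ring of Mcm2 to Mcm7 onto origins. The ring becomes an active helicase when the GINS complex and other factors join it. DNA polymerase alpha with its primase lays down primers, polymerases delta and epsilon extend them, and the clamp PCNA, loaded by replication factor C, holds the polymerases on the template. Many of these genes are textbook targets of the E2F transcription factors and are transcribed most strongly around the entry into S phase. In bulk RNA, fewer cells in S phase and less RNA per cell cannot be told apart.

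The start regions of 7 members are shown first, because the E2F family is a textbook regulator of such genes and its words can be looked for in their start regions. Windows of 300 bases, 250 before to 50 after each annotated start, came from RefSeq on GRCm38.p6 and existed for 37 of the 45 members. Each printed run is the 200 bases before the start, 5′ to 3′ on the gene's own strand, and capitals mark every match to TTTCGCGC, TTTGGCGC or TTTCCCGC on either strand. The first 6 hold a match and belong to helicase (Mcm5, Mcm6, Gins3), licensing (Cdc6), polymerase (Pola1) and chromatin (Uhrf1) genes, and that of Rfc4, the member with the smallest p for TGFb1, has none. The regions are those of Mcm5 (chr8:75109309-75109508, plus strand), Mcm6 (chr1:128359706-128359905, minus strand), Gins3 (chr8:95633359-95633558, plus strand), Cdc6 (chr11:98907951-98908150, plus strand), Pola1 (chrX:93632156-93632355, minus strand), Uhrf1 (chr17:56304113-56304312, plus strand) and Rfc4 (chr16:23127731-23127930, minus strand). In Mcm5, and at the first site of Mcm6, a pair of matches on opposite strands overlaps and forms a single capital run.
Mcm5: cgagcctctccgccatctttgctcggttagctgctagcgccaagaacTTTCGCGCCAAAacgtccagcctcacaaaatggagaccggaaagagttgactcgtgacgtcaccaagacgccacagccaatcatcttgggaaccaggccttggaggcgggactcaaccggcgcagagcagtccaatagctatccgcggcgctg
Mcm6: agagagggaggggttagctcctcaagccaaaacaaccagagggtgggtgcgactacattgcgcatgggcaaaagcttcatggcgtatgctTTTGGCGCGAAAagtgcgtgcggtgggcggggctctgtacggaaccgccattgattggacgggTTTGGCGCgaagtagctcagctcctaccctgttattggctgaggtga
Gins3: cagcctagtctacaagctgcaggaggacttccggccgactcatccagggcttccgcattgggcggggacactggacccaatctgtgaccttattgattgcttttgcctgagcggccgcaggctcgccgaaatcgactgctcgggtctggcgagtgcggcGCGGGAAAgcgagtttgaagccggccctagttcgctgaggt
Cdc6: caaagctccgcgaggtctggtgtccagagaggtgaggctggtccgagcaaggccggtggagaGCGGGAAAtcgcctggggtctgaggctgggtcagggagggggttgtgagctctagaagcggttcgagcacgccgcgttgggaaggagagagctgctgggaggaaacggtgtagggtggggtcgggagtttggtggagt
Pola1: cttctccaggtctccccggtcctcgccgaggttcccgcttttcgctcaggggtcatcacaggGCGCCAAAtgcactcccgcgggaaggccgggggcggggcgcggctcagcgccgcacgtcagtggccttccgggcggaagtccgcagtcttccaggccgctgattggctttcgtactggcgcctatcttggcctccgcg
Uhrf1: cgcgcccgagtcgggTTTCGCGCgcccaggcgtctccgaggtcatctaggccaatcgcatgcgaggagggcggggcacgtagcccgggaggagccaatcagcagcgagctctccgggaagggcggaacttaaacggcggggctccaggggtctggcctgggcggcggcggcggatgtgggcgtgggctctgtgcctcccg
Rfc4: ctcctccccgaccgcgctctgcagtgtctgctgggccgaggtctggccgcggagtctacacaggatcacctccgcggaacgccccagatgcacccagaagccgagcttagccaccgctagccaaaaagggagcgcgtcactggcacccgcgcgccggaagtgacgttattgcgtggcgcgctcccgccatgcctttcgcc

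An E2F word lay in the 300-base window of 14 of the 37 members with a window (37.8%), against 573 of 27025 genes in the whole table (2.12%). The 14 were Mcm3, Mcm5, Mcm6, Mcm7, Gins3, Cdc6, Cdt1, Pola1, Pold1, Pold3, Pole2, Rfc3, Lig1 and Uhrf1. Other promoter words were closer to the whole table: CCAAT lay in 54.1% of members and 41.1% of all genes, and the cell cycle words TTTGAA or TTCGAA in 18.9% and 21.7%. The GC-box letters GGGCGG lay in 78.4% of members and 38.2% of all genes, and the members' windows were also richer in G and C, with a median of 62.7% against 52.7%. A match is a string of letters and does not show binding. Members were also grouped by these words for their change with TGFb1, which is described next. The median log2 change was -0.78 for the 14 with an E2F word and -0.82 for the 23 with a window and no word. For the 8 without a window it was -0.76. Only 3 exact E2F words were looked for, and whether they relate to the change was not tested.

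Gene counts per library were 37552858 to 94401699. The members took 0.599 to 0.673% of gene counts in untreated cells, 0.291 to 0.451% with TGFb1 and 0.628 to 0.664% in the stable lines. Every member had at least 423 counts in every library. Levels are given as CPM, counts relative to library size after scaling by the trimmed mean of M values (TMM). Divided by exon length, untreated levels ran from 279 CPM per kb for Pcna, the clamp, through 160 for Rrm2, a ribonucleotide reductase subunit, and 54.7 to 117 for the 6 subunits of the Mcm ring, down to 10.1 for Gins3. The lengths came from another genome build than the counts, so these levels are approximate. Epithelial markers such as Krt8 and Cdh1 summed to 3185 to 5859 CPM in every library, endothelial markers stayed under 0.586 CPM, and leukocyte markers summed to 11.6 to 31.0 CPM with Cd3e and Ms4a1 at 0 throughout. Fibroblast markers summed to 36.4 to 59.9 CPM in untreated cells and 61.1 to 73.6 with TGFb1, mostly Pdgfra, with Thy1 at 0, and Col1a1, Acta2 and Pdgfrb were called higher among the 7 of 10 tested. Leukocyte markers summed to 11.6 to 26.3 CPM in untreated cells and 17.9 to 30.5 with TGFb1, and of the 4 of 12 tested Csf1r was called higher (group means of 0.166 CPM untreated and 2.40 CPM treated) and Ptprc, the pan-leukocyte marker, lower (0.639 and 0.165 CPM). Whether these shifts have a part in the TGFb1 results was not tested.

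**Figure D1:**
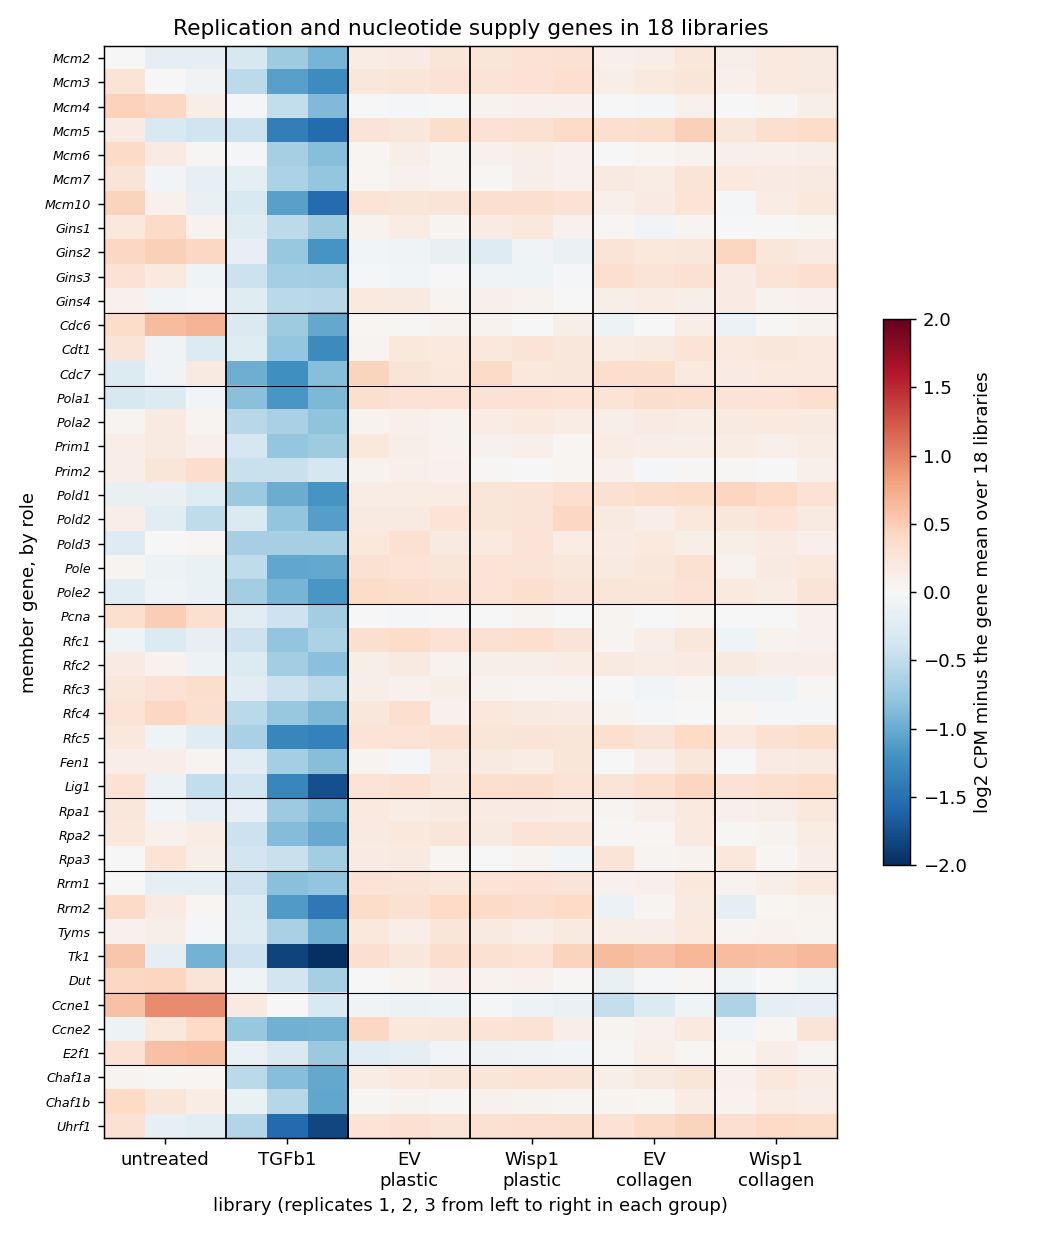
Heat map of the 45 members (vertical axis, ordered by role) in 18 libraries (horizontal axis, replicates 1 to 3 in each group), with colour for log2 CPM minus the gene's mean over all libraries. The 3 TGFb1 libraries are the lowest block, and for 37 members all 3 lie below every other library. The share of all genes with this pattern is not given.

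TGFb1 lowered replication genes of every role in parental cells, and no member rose. Of 45 members 26 were called lower (57.8%), against 4.92% of the 14874 genes tested, with the edgeR quasi-likelihood test and Benjamini-Hochberg adjustment at 0.05. The median log2 change of the members was -0.79, and that of all genes tested was -0.01. All 45 estimates were negative, from -0.45 for Rfc1, the large clamp loader subunit, to -1.32 for Tk1, the thymidine salvage kinase. In 41 members the untreated and TGFb1 libraries did not overlap, against 14.2% of all genes for this direction, and the 4 that overlapped were Cdt1, Pold2, Lig1 and Tk1.

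The untreated and TGFb1 libraries carried codes in their titles that recur in both groups, with no word on their meaning, and libraries with the same code deviated together from their group means. Within the 3 pairs so formed every member was lower with TGFb1. The median member difference was -0.51 in pair 1, -0.87 in pair 2 and -0.95 in pair 3 on the log2 CPM scale, while 47.9 to 49.9% of all genes were lower. Pair 1 had the median nearest to 0 in each of the 8 roles. With the code as a replicate block all 45 members were called lower, against 22.5% of all genes, with a median of -0.80. Without the block, the number called depended on single libraries: dropping TGFb1 replicate 1 gave 43 and TGFb1 replicate 3 gave 13, dropping untreated replicate 1 gave 14 and untreated replicate 3 gave 12. Dropping either library of pair 2, TGFb1 replicate 2 or untreated replicate 2, left 2 members called, Pola2 and Rfc4. The share of all genes called lower moved too, to 4.57 and 2.23% in the first 2 of these fits, 2.73 and 2.62% in the next 2, and 1.06 and 0.709% without TGFb1 replicate 2 and untreated replicate 2. All 45 estimates stayed negative in each of these 6 fits. In a check chosen after seeing the data, the blocked fit without pair 1, 2 or 3 called 45, 41 or 44 members. The shares of all genes called in that check are not given here.

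**Figure D2:**
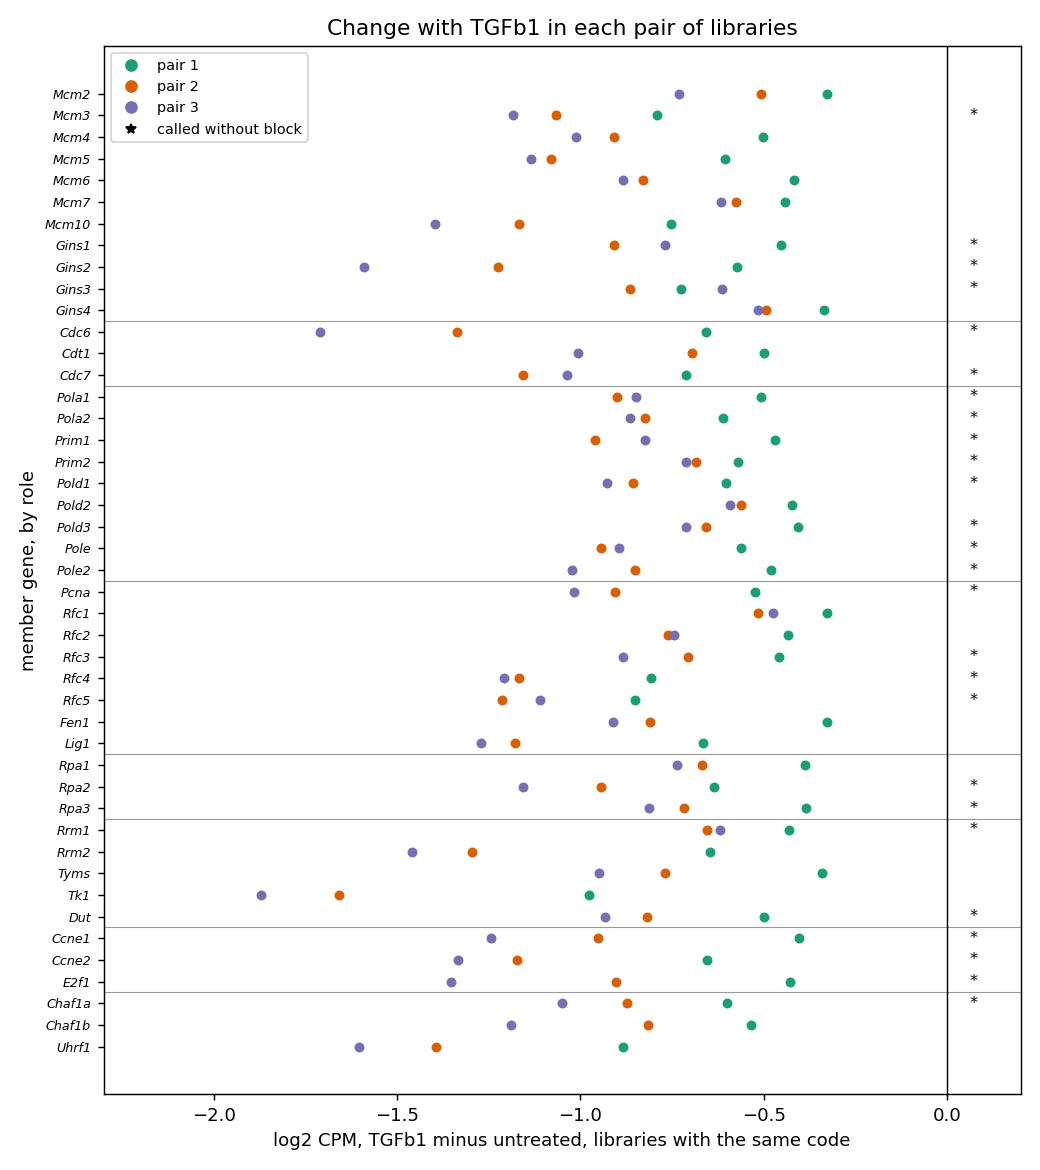
Difference in log2 CPM, TGFb1 minus untreated (horizontal axis), for each member (vertical axis, by role) in the 3 pairs of libraries that share a code; an asterisk marks the 26 members called lower without the block. Every point lies left of 0, and pair 1 lies nearest to 0 for most members.

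Among helicase genes 4 of 11 were called lower: Mcm3, Gins1, Gins2 and Gins3. Mcm3, a subunit of the ring, stood at 347, 286 and 275 CPM in untreated libraries 1 to 3 and at 201, 136.5 and 121 CPM in TGFb1 libraries 1 to 3. The groups were far apart, and the change was 2.01-fold lower (SE 0.21 on the log2 scale, adjusted p = 0.029). Gins3, a GINS subunit, went from 30.3, 28.2 and 23.3 CPM to 18.3, 15.5 and 15.2 CPM, 1.69-fold lower (adjusted p = 0.027). Mcm5, another ring subunit, was at 349, 252 and 235 CPM and at 229, 119 and 107 CPM: TGFb1 library 1 came close to untreated library 3, and the log2 change of -0.90 ± 0.32 had an adjusted p of 0.14 without the block and 0.00067 with it. The other helicase members, Mcm2, Mcm4, Mcm6, Mcm7, Mcm10 and Gins4, had log2 changes from -0.46 to -1.05 and were called with the block but not without it.

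Of the licensing factors, Cdc6, which loads the Mcm ring, fell from 83.6, 100.3 and 104 CPM to 53.0, 39.7 and 31.8 CPM, a 2.34-fold change (log2 -1.22 ± 0.20, adjusted p = 0.014). Cdc7, the kinase that fires licensed origins, fell from 30.6, 35.2 and 41.9 CPM to 18.7, 15.8 and 20.4 CPM, 1.98-fold (adjusted p = 0.014). In both genes untreated library 1 was the lowest of its group, the reverse of Mcm5. Cdt1, the loading partner of Cdc6, was at 134, 107 and 93.1 CPM in untreated cells and 95, 65.9 and 46.3 CPM with TGFb1. Its groups overlapped, and its log2 change of -0.71 had an adjusted p of 0.17 without the block and 0.00097 with it.

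Of the polymerase and primase subunits 8 of 9 were called lower. Pola2, the second subunit of polymerase alpha, went from 104, 114 and 105 CPM to 68.2, 64.4 and 57.6 CPM, 1.72-fold lower (log2 -0.78 ± 0.10, adjusted p = 0.0067). Its replicates were tight and its call held in all 17 alternatives tried. Prim2, the large primase subunit, fell 1.60-fold, from 44.8, 48.4 and 52.5 CPM to 30.2, 30.1 and 32.1 CPM (adjusted p = 0.012). The other called members, Pola1, Prim1, Pold1, Pold3, Pole and Pole2, fell 1.53 to 1.74-fold. Pold2, an accessory subunit of polymerase delta, was the exception without the block, at 93.6, 72.8 and 60.0 CPM against 69.8, 49.3 and 39.8 CPM (adjusted p = 0.26, and 0.00046 with the block).

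Of the clamp, loader and maturation genes 4 of 8 were called: Pcna, Rfc3, Rfc4 and Rfc5. Rfc4, a clamp loader subunit, went from 48.9, 53.7 and 50.2 CPM to 27.9, 23.9 and 21.7 CPM, 2.10-fold lower (log2 -1.07 ± 0.13, adjusted p = 0.0056), and its call held in all 17 alternatives. Rfc3, another loader subunit, fell 1.62-fold from 60.4, 62.7 and 65.4 CPM to 43.9, 38.4 and 35.4 CPM (adjusted p = 0.014). Pcna itself fell 1.77-fold. Lig1, the ligase that joins Okazaki fragments, was at 169, 128 and 99.1 CPM in untreated cells and at 107, 56.5 and 41.1 CPM with TGFb1. TGFb1 library 1 thus lay above untreated library 3, and the log2 change of -0.97 ± 0.37 had an adjusted p of 0.16 without the block and 0.00082 with it. Rfc1, Rfc2 and Fen1, the flap nuclease, were likewise called with the block but not without it.

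The RPA genes, whose products coat single-stranded DNA, had 2 of 3 members called. Rpa2 fell 1.88-fold, from 60.1, 55.3 and 57.9 CPM to 38.7, 28.7 and 25.9 CPM (adjusted p = 0.020), and Rpa3 fell 1.57-fold, from 29.3, 35.3 and 31.8 CPM to 22.4, 21.4 and 18.1 CPM (adjusted p = 0.028). Rpa1, the large subunit, was at 243, 200.5 and 186.01 CPM and at 185.99, 126 and 112 CPM. Its groups touched without overlapping, and its adjusted p was 0.14 without the block and 0.00071 with it.

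Of the nucleotide enzymes, Dut, which removes dUTP, and Rrm1, the large subunit of ribonucleotide reductase, were called lower. Dut went from 188, 191 and 169 CPM to 133, 108 and 88.7 CPM, 1.68-fold lower (adjusted p = 0.030), and Rrm1 from 300.3, 264 and 264 CPM to 223, 168 and 172 CPM, 1.49-fold lower (adjusted p = 0.044). Tk1 had both the lowest estimate and the widest spread of the list. It stood at 211, 126 and 74.7 CPM in untreated libraries 1 to 3 and at 107, 40.0 and 20.4 CPM in TGFb1 libraries 1 to 3, so the group ranges overlapped while every pair had the same direction. The log2 change was -1.32 ± 0.65 without the block (adjusted p = 0.27) and -1.51 ± 0.16 with it (adjusted p = 0.00076). Rrm2 and Tyms, thymidylate synthase, had log2 changes of -1.07 and -0.67 and were called with the block but not without it.

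All 3 regulators of S phase entry fell. Ccne2, a cyclin partner of Cdk2, went from 35.0, 43.3 and 49.2 CPM to 22.2, 19.2 and 19.5 CPM, 2.11-fold lower (log2 -1.08 ± 0.15, adjusted p = 0.0091). E2f1, a founding E2F factor, went from 60.5, 74.6 and 75.5 CPM to 44.9, 39.9 and 29.6 CPM, 1.86-fold lower (adjusted p = 0.026). Ccne1, the other cyclin E gene, went from 18.7, 24.0 and 24.0 CPM to 14.1, 12.4 and 10.1 CPM, 1.84-fold lower (adjusted p = 0.026). In untreated cells library 1 was the lowest of the 3 for each of these genes.

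Chaf1a, the large subunit of the histone chaperone CAF-1, fell 1.80-fold, from 136, 132 and 133 CPM to 89.8, 72.1 and 64.4 CPM (adjusted p = 0.013). Uhrf1, which guides DNA methylation at replication forks, was at 332, 241 and 232 CPM and at 179.7, 91.6 and 76.2 CPM. Its groups did not overlap, but with a log2 change of -1.23 ± 0.34 its adjusted p was 0.069 without the block and 0.00055 with it. Chaf1b, the middle CAF-1 subunit, went from 81.4, 73.0 and 68.2 CPM to 56.3, 41.5 and 29.9 CPM (log2 -0.82 ± 0.23, adjusted p = 0.072, and 0.0016 with the block).

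Members differed in which parental replicate was high. In TGFb1 cells, replicate 1 was the highest of the 3 libraries for 43 of 45 members, all but Cdc7 and Prim2. In untreated cells replicate 1 was the highest for 25 members, among them Mcm5, Tk1, Lig1 and Uhrf1. Replicate 3 was the highest of the untreated libraries for Cdc6, Cdc7, Pola1, Prim2, Pold3, Rfc3, Ccne2 and E2f1. The median standard deviation of a member within a group was 0.15 in untreated cells and 0.30 with TGFb1 on the log2 scale, against 0.03 to 0.06 in the 4 stable-line groups.

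Some other genes of the pathway, taken from 3 further lists, also fell with TGFb1, where 4.92% of all genes were called lower. Of 37 further replication genes 16 were called lower with TGFb1 and 0 higher (median log2 change -0.68), with the smallest p for Orc6, an origin recognition subunit (1.60-fold), Mtbp (1.95-fold), Wdhd1 (1.80-fold) and Fbxo5, an inhibitor of the anaphase-promoting complex (1.77-fold). Of 25 further nucleotide genes 9 were called lower (median -0.34), among them Shmt1, a serine hydroxymethyltransferase (2.87-fold), the folate enzyme Mthfd1 (1.62-fold) and the nucleotide pyrophosphatase Dctpp1 (1.72-fold). Of 33 further genes of the G1/S programme 8 were called lower (median -0.73), with the smallest p for Slbp, the histone mRNA binding protein (1.82-fold), Hells (1.82-fold), Brca1 (1.73-fold) and Dnmt1, the maintenance DNA methyltransferase (1.70-fold). No gene of these lists was called higher, and most genes of each list were not called. These counts too varied with the library left out. Without TGFb1 replicate 1 they were 19, 10 and 19 in the order given, and without either library of pair 2 they were 0, 2 and 2. Without TGFb1 replicate 3 they were 5, 3 and 6, without untreated replicate 1 they were 6, 5 and 6, and without untreated replicate 3 they were 7, 4 and 6.

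**Figure D3:**
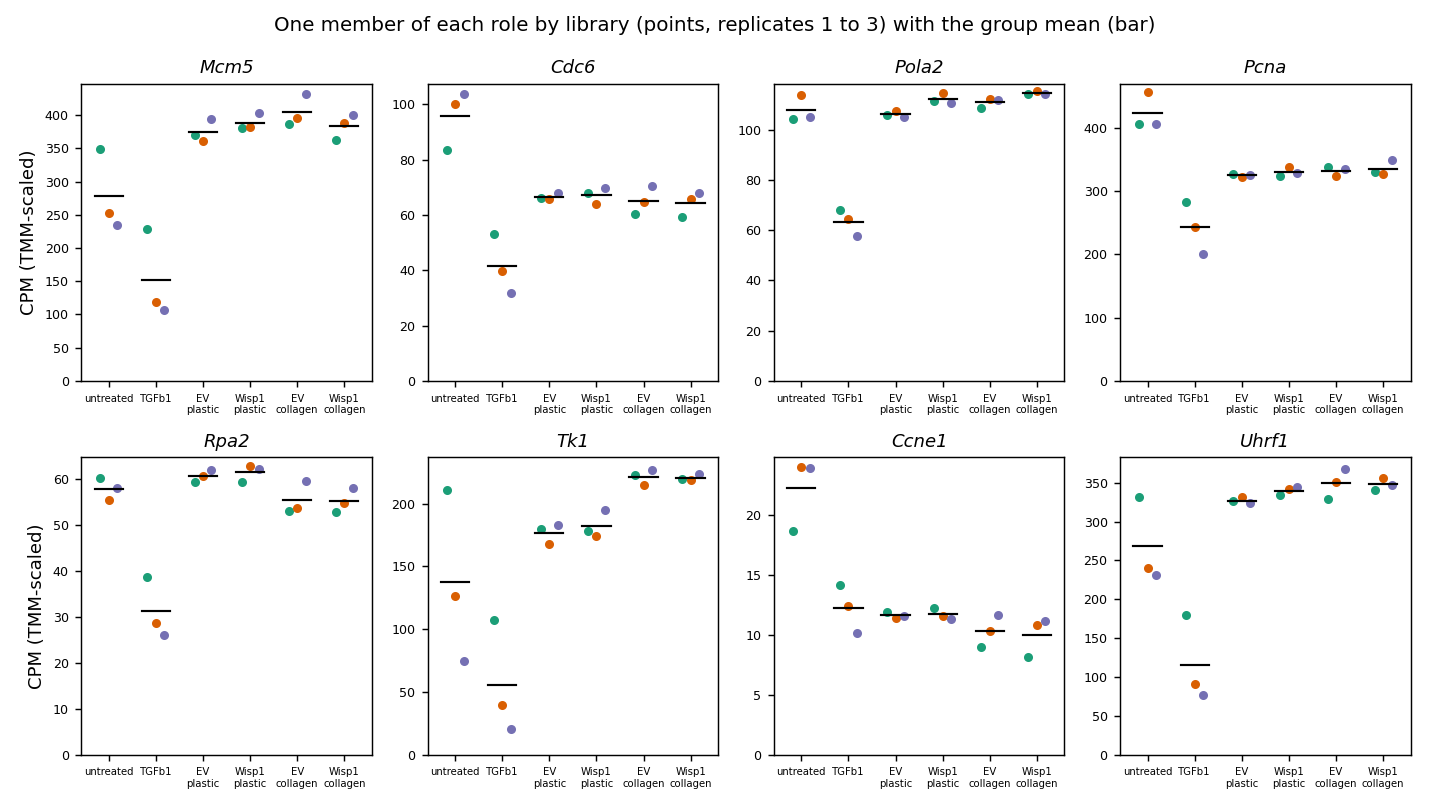
CPM (vertical axes, from 0) of 1 member of each role in the 6 groups (horizontal axes); points are replicates 1 (green), 2 (orange) and 3 (purple) and bars are group means. TGFb1 has the lowest mean in all panels but that of Ccne1, where every stable-line group is lower.

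Over all 6 groups, TGFb1-treated cells had the lowest mean for 44 of 45 members, and for 37 all 3 TGFb1 libraries lay below the other 15. The shares of all genes with these patterns are not given here, so the counts only describe the list. The 8 members without that separation were Gins2, Cdt1, Pold2, Lig1, Tk1, Dut, Ccne1 and E2f1. Ccne1 was lowest in Wisp1 cells on collagen, at 8.11, 10.8 and 11.1 CPM. Its mean with TGFb1, 12.2 CPM, was above that of every stable-line group (10.0 to 11.7 CPM). The highest mean was in untreated cells for 15 members, in Wisp1 cells on plastic for 10, in EV cells on plastic and on collagen for 9 each, and in Wisp1 cells on collagen for 2.

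Wisp1 itself stood at 36.8 to 72.1 CPM in EV and 897 to 1067 CPM in Wisp1 cells on plastic, and at 14.1 to 16.2 and 1054 to 1120 CPM on collagen, with no overlap between the lines. Wisp1 overexpression moved no member past the threshold on either substrate without a block. On plastic 0 of 45 members were called against EV, where 0.0143% of 13953 genes were. An unadjusted p under 0.05 was found for 4 members and for 822 of the 13953 genes. DESeq2 and limma-voom also called 0. Estimates ran from -0.13 to 0.14 on the log2 scale with a median of 0.01. The smallest p was that of Pold1, the catalytic subunit of polymerase delta, at 88.6, 88.9 and 88.2 CPM in EV and 95.03, 96.5 and 101 CPM in Wisp1 cells. Its groups did not overlap, and the log2 change was 0.14 ± 0.04 (adjusted p = 0.70). Pola2 (0.08), Mcm4 (0.09), Mcm2 (0.09) and Rpa3 (-0.13) came next, with adjusted p of 0.82 to 0.83. With a replicate block within each substrate 2 members were called higher, Pold1 (adjusted p = 0.037) and Fen1 (1.09-fold, adjusted p = 0.039). Of the 13953 genes 290 were called higher in that fit, and 3.15% were called either way.

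On collagen 0 of 45 members were called for Wisp1 against EV, where 0.0717% of genes were. An unadjusted p under 0.05 was found for 3 members and for 707 of 13953 genes. DESeq2 and limma-voom called 0 here too. Estimates ran from -0.12 to 0.08 with a median of -0.02. Tyms had the smallest p, at 96.8, 97.2 and 101 CPM in EV and 91.6, 92.6 and 91.5 CPM in Wisp1 cells, a log2 change of -0.10 ± 0.04 (adjusted p = 0.89). Rfc1 (-0.12), Mcm6 (0.08), Pole (-0.09) and Cdc7 (-0.12) followed, with adjusted p of 0.97 to 1.00. With the block Rfc1 alone was called, lower (adjusted p = 0.017). Of 13953 genes 131 were called lower in that fit, and 2.57% were called either way.

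The difference between the Wisp1 effects on the substrates was called for 0 of 45 members, as for 0% of all genes. An unadjusted p under 0.05 was found for 0 members and for 410 of 13953 genes. DESeq2 and limma-voom called 0. The smallest p values were those of Pold1 (-0.11 ± 0.06), Mcm5 (-0.13 ± 0.07), Chaf1a (-0.10 ± 0.06), Mcm10 (-0.12 ± 0.08) and Rpa3 (0.13 ± 0.09) on the log2 scale, all with an adjusted p of 0.97. With the block 0 were called, against 0.502% of all genes. In that fit 8 members had an unadjusted p under 0.05, as had 2040 of 13953 genes.

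Growth on collagen shifted single members in both directions and left the median of the list near 0. In EV cells 12 of 45 members (26.7%) were called, below the 36.5% of all genes called: 9 rose (Mcm5, Mcm7, Gins2, Gins3, Pola2, Pold1, Tk1, E2f1 and Uhrf1) and 3 fell (Rrm2, Rfc4 and Rfc1). In Wisp1 cells 12 were called as well, below 40.4% of all genes: 6 rose (Mcm7, Gins2, Gins3, Pold1, Tk1 and E2f1) and 6 fell (Mcm3, Mcm10, Rfc1, Rfc4, Rrm1 and Rrm2). The median log2 change was 0.01 in EV cells and -0.01 in Wisp1 cells. The 2 comparisons share no library but share the estimate of spread. Each called 9 of its 12 members (75%) in the other line, all in the same direction, and for all genes the shares were 80.2% of the EV calls and 72.4% of the Wisp1 calls.

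Tk1 stood at 180, 168 and 183 CPM on plastic and 223, 215 and 227 CPM on collagen in EV cells, 1.28-fold higher (log2 0.35 ± 0.05, adjusted p = 5.5e-05). In Wisp1 cells it went from 178, 174 and 195 CPM to 219.9, 219 and 224 CPM, 1.23-fold higher (adjusted p = 0.00016). In both lines each collagen library lay above each plastic library. Gins3 went from 24.2, 23.7 and 24.8 CPM to 31.3, 29.5 and 30.5 CPM in EV cells (1.28-fold, adjusted p = 0.00013) and rose 1.27-fold in Wisp1 cells (adjusted p = 0.00016). Gins2, also of the GINS complex, rose 1.27-fold in EV cells (adjusted p = 0.0013) and 1.37-fold in Wisp1 cells (adjusted p = 0.00017), from 32.3 to 34.7 CPM on plastic in EV cells to 41.3 to 42.9 CPM on collagen. The other GINS members, Gins1 and Gins4, were called in neither line. E2f1 rose 1.18-fold in EV cells (adjusted p = 0.0014) and 1.14-fold in Wisp1 cells (adjusted p = 0.0069), and Pold1 1.17-fold (adjusted p = 0.0010) and 1.08-fold (adjusted p = 0.048).

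Rrm2, the regulated small subunit of ribonucleotide reductase, fell on collagen from 393, 374 and 399.6 CPM to 282, 316 and 346 CPM in EV cells (1.21-fold, adjusted p = 0.0065). In Wisp1 cells it fell from 396, 389.7 and 403 CPM to 269, 312 and 318 CPM (1.30-fold, adjusted p = 0.00084). Collagen replicate 1 was the lowest library in both lines. Rfc1 fell 1.11-fold in EV cells (adjusted p = 0.035) and 1.19-fold in Wisp1 cells (adjusted p = 0.0025). Of the nucleotide genes, Tk1 was called higher and Rrm2 lower in both lines, and Dut and Tyms were called in neither. Rrm1 was called lower in Wisp1 cells (adjusted p = 0.049) and not in EV cells (0.11). Of all genes, 36.5% were called in EV cells and 40.4% in Wisp1 cells, so nothing particular to this role is read from these calls.

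**Figure D4:**
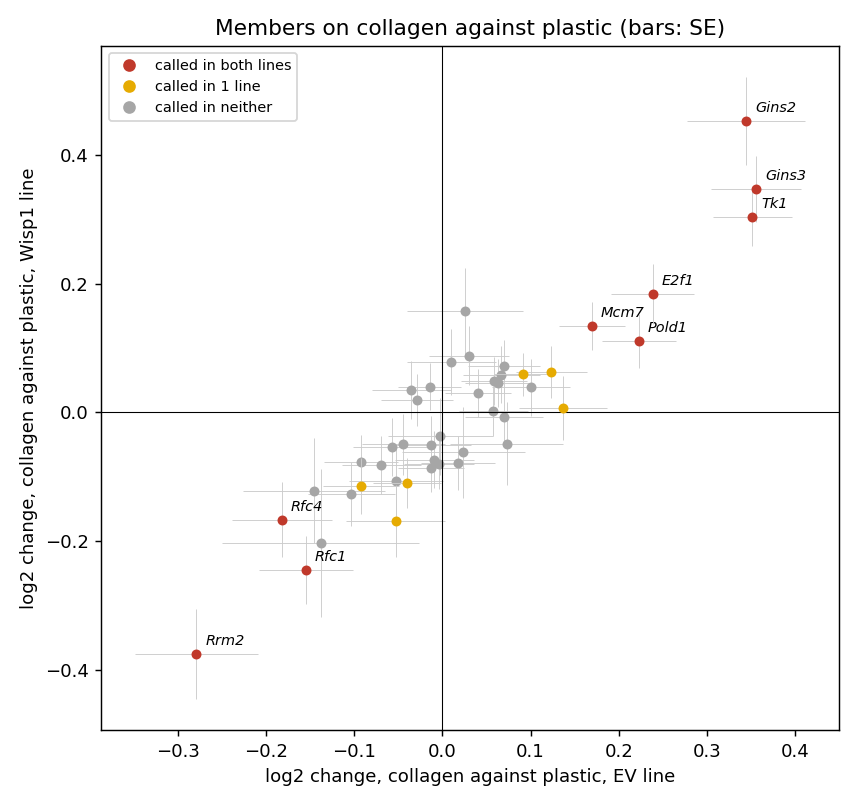
Fitted log2 change on collagen against plastic in EV cells (horizontal axis) and in Wisp1 cells (vertical axis) for the 45 members, with standard errors as bars. The 9 members called in both lines are named: 6 lie above 0 on both axes and 3 below.

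For the further lists, too, the shares of all genes called were 36.5% in EV cells and 40.4% in Wisp1 cells, and nothing particular to a list is read from its count. Of the 37 further replication genes, 10 fell and 3 rose on collagen in EV cells and 14 fell and 3 rose in Wisp1 cells. Pold4, the smallest polymerase delta subunit, rose 2.10-fold in EV cells and 2.05-fold in Wisp1 cells, beyond any of the 45 members, and Dbf4, the activator of Cdc7, fell 1.30-fold and 1.31-fold. Of the 25 further nucleotide genes 9 fell and 1 rose in EV cells and 14 fell and 2 rose in Wisp1 cells, with Ctps, CTP synthase, down 1.36-fold and 1.49-fold and Impdh2, of guanine nucleotide synthesis, down 1.17-fold and 1.27-fold. Of the 33 further G1/S genes 4 fell and 3 rose in EV cells and 12 fell and 5 rose in Wisp1 cells, with E2f8, a repressor of the E2F family, up 1.31-fold and 1.25-fold and Tfdp2, a dimer partner of E2F factors, up 1.37-fold and 1.38-fold.

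The collagen calls among members depended on the fit and on single libraries. With all 18 libraries in a fit, which adds the more variable parental cells to the estimate of spread, 1 member stayed called in EV cells (Gins3, adjusted p = 0.034) and 2 in Wisp1 cells (Gins3, 0.032, and Rfc1, 0.042), and the adjusted p of Tk1 was 0.70 and 0.73. In EV cells 7 members were called without collagen replicate 2, and 7 without plastic replicate 1 or 2. In Wisp1 cells 6 were called without plastic replicate 1, 7 without plastic replicate 2 and 8 without collagen replicate 1. The shares of all genes called in these refits are not given here. Nothing particular to the members is therefore read from the lower counts. Among cell type markers on collagen, 1 of 5 fibroblast markers tested was higher (Pdgfra) and 2 were lower in each line, and of 7 epithelial markers 2 were higher and 2 lower in EV cells and 2 higher and 1 lower in Wisp1 cells. Of the leukocyte markers, 1 of 7 leukocyte markers tested was higher in EV cells (Emr1) and 2 in Wisp1 cells (Cd68 and Cd14). Their part in the member changes was not tested.

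EV cells on plastic and untreated parental cells were compared to place the stable lines beside the parental ones. The vector, selection, the medium change and the sample series differ at once between these groups and cannot be told apart, and the untreated libraries are those of the TGFb1 comparison. Of 45 members 18 were called (40%), against 53.9% of 15032 genes, 9 higher and 9 lower in EV cells. Of the 15032 genes, 3832 were called higher and 4266 lower. Both E2f1 and Ccne1 were among the lower ones. Ccne1 stood at 11.9, 11.4 and 11.6 CPM in EV cells and 18.7, 24.0 and 24.0 CPM in untreated cells (log2 -0.94 ± 0.15, adjusted p = 8.4e-05), and E2f1 was 1.58-fold lower (adjusted p = 0.00027). Cdc6, Gins2, Mcm4, Pcna, Rfc3, Prim2 and Dut were lower as well. Polymerase genes went mostly the other way: Pola1, at 120, 118 and 118 CPM against 77.0, 79.8 and 93.1 CPM, was 1.42-fold higher (adjusted p = 9.2e-05), Pole2 was 1.40-fold higher (adjusted p = 0.00030), and Pold1, Pold3 and Pole were higher too, which made 5 of 9 polymerase genes. Rfc1 was 1.41-fold higher (adjusted p = 0.00017), and Mcm2, Cdc7 and Rrm1 were also higher. Without untreated replicate 2, 11 members were called, and the share of all genes called in that fit is not given here. Cell type markers differed as well: of 7 leukocyte markers tested 4 were called higher in EV cells (Lyz2, at 3.92 against 0.0239 CPM, Emr1, Csf1r and Itgam) and 2 lower (Cd14 and Ptprc), of 7 fibroblast markers 2 were higher and 2 lower, and of 7 epithelial markers 1 was higher and 2 were lower. Their part in the member differences was not tested.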

How the data were processed

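The submitters deposited raw read counts per gene symbol for each of 18 libraries, with no normalization by the authors. Per the labels, poly(A) RNA was made into stranded mRNA libraries. The tools in the submitters' processing notes are HTSeq, STAR, BWA, CASAVA, limma and R 3.2.4, and the build is mm9, without roles. Annotation and counting strand: not given in the sources used here, so reads of overlapping antisense genes cannot be told apart. Reads outside genes (10.2 to 13.5%), ambiguous reads (1.02 to 2.08%) and reads not aligned (1.84 to 3.47%) were left out. Counting intervals were not used, because replicates varied by more than counting error (chi-squared over its degrees of freedom 3.135 to 197.6).

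All genes were tested with edgeR 4.0.16 in R 4.3.3 (filterByExpr, TMM, robust quasi-likelihood F test), and a gene was called at a Benjamini-Hochberg adjusted p under 0.05 over all genes tested. TGFb1 was fitted on the 6 parental libraries, the stable lines on their 12 libraries with 4 group means, and EV against untreated on all 18. Standard errors were computed by dividing the size of a log2 change by the root of its F statistic. Alternatives were DESeq2 1.42.0, limma-voom 3.58.1, other scalings and filters, all libraries in a fit, each library left out, and the replicate number as a block. Deviations from the group means correlated at 0.772, 0.514 and 0.76 between parental libraries with the same code, at 0.105, 0.194 and 0.19 between EV and Wisp1 on plastic and at 0.447, 0.13 and 0.317 on collagen, all over the minimum of 0.1. In the stable lines the pairing rests on these correlations and the numbers in the titles. Between substrates they did not all pass, so no block spanned them. The unblocked fits of TGFb1 against untreated and of collagen against plastic in EV cells were tested on simulated data. The simulated counts held no replicate effect, so that test does not cover the blocked fits.

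Members, lists and tests were chosen with earlier results of these data known. Named members are, per role, the 2 smallest and the largest p for TGFb1 (all where a role has 3), and up to 5 smallest p in other comparisons; of each further list up to 4 with the smallest p for TGFb1 and 2 on collagen, of which 1 gene is not reported here. Other members are named to account for the whole list, and some were chosen after their values were seen. Promoter windows came from RefSeq on GRCm38.p6 and exon lengths from GENCODE M21; no coordinate of the count files was used.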

Additional observations from a re-analysis of the deposited data

How the results depend on the processing

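Across the alternatives no named member reversed its direction. The number of members called with TGFb1 was 45 with the replicate block and 45 with all 18 libraries in a fit. It ranged from 2 to 43 when 1 library was left out, and was 45, 41 or 44 when pair 1, 2 or 3 was left out of the blocked fit, with medians of -0.96 to -0.70. DESeq2 called 39 members. Of all genes, 4.92% were called lower in the main fit and 22.5% with the block. On collagen, all 18 libraries in a fit gave 1 call in EV cells and 2 in Wisp1 cells, where the median was -0.034. Leaving out 1 library gave 7 to 11 calls in EV cells, 6 to 14 in Wisp1 cells with medians of -0.03 to 0.022, and 11 to 17 for EV against untreated. The block within each substrate gave 2 calls for Wisp1 on plastic and 1 on collagen. Shares of all genes are not given here for DESeq2, the fits with all 18 libraries or the blocked fits without a pair. They are also not given for the collagen and EV refits without 1 library. Member counts alone do not show whether a shift is particular to the members. Leaving out a library also leaves fewer samples for the estimate of spread; the cause of the other shifts was not tested. The remaining counts and medians stayed within 1.5 times or 1 SD of their values.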
